A study of Homo sapiens with 9 samples.

Results

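Described here are 10 genes that encode epithelial transcription factors and splicing regulators: EHF, ELF3, GRHL1, GRHL2, OVOL1, TP63, KLF4, KLF5, ESRP1 and ESRP2. They were selected on earlier results of these same libraries. Their differences between the knockdown and control groups are therefore given as a description, with no p-value, and the number past the threshold of the fit over all genes supports nothing. Of the 26186 genes in the count table, 9 were among them, and GRHL2 was not analysed here. A filter on low counts left 8 of the 9 among the 16235 genes tested, and OVOL1 fell below it. RNA was measured in MCF10A, a line of human breast epithelial cells that does not form tumours, in 3 groups of 3 libraries. The control group, shGFP, carried a short hairpin RNA against green fluorescent protein. The groups shCHAF1B-1 and shCHAF1B-2 each carried a different hairpin against CHAF1B, a subunit of the histone chaperone CAF-1. All 9 libraries came from cells that received a pLKO.1 lentivirus and 2 µg/mL puromycin from 24 hours on, in medium with 5% horse serum and 20 ng/mL EGF, with RNA taken on day 3 after infection. The series asked how RNA levels differ when CAF-1 is suppressed.

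CHAF1B itself stood at 35.2, 41.0 and 36.8 CPM (counts scaled to library size) in shGFP and between 2.56 and 3.89 CPM in the 6 knockdown libraries. Library totals ranged from 24339914 to 31819468 counts. The labels do not say whether the 3 libraries of a group came from separate cultures, so p-values measure the spread between these libraries, which may be technical. Basal epithelial markers (10 of 10 in the table) summed to 12834 to 13912 CPM in shGFP, 11915 to 13087 in shCHAF1B-1 and 11725 to 12351 in shCHAF1B-2. Within that sum 6 fell and 3 rose, with KRT5 (log2 fold change -0.84), KRT17 (-1.16) and KRT14 (-0.52) lower and LAMB3 (1.42) and ITGB4 (0.95) higher over both hairpins. Luminal markers (7 of 10 in the table) summed to 446 to 489, 587 to 641 and 563 to 611 CPM. Among them the keratins KRT8 (0.78), KRT18 (0.21) and KRT19 (1.97, from 0.194 CPM in shGFP) rose. ESR1, FOXA1, GATA3 and MUC1 did not pass an adjusted p under 0.05. Fibroblast markers (7 of 10) summed to 43.6 to 46.9, 55.0 to 58.7 and 57.2 to 58.4 CPM. The fibroblast genes did not move together: FAP (0.61) and COL1A1 (0.84) rose, DCN fell to 19.2% of its shGFP level, and LUM was at 0 in all shCHAF1B-1 libraries. Replicate 3 of shCHAF1B-1 stood apart: its B lymphocyte markers (11 of 12 in the table) summed to 236 CPM, against 2.33 to 3.75 CPM in the other 8 libraries, with BANK1 at 0 in every shCHAF1B-2 library. Without it, the log2 fold change for shCHAF1B-1 was -2.11 for EHF, 1.57 for ELF3, 0.81 for GRHL1, 0.87 for KLF4, -0.25 for KLF5, -0.14 for TP63, 0.08 for ESRP1 and -0.04 for ESRP2. Over both hairpins these became -2.06, 1.37, 0.75, 0.81, -0.20, -0.09, 0.12 and -0.09. Of the other list genes named below, HES1 and TGM1 lost their call without it.

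EHF and ELF3 are ETS transcription factors found mainly in epithelia. GRHL1 belongs to the grainyhead-like family, which maintains cell junctions and the epidermal barrier, and OVOL1 is a zinc finger repressor of mesenchymal genes. TP63 encodes p63, the lineage factor of basal and stratified epithelial cells. KLF4 and KLF5 are Krüppel-like factors: in many epithelia KLF4 goes with differentiation and arrest of the cell cycle, KLF5 with proliferation. ESRP1 and ESRP2 are RNA-binding proteins that direct the epithelial splice forms of genes such as FGFR2 and CD44. SNAI and ZEB factors oppose this network and bind E-boxes in the promoters of epithelial genes.

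The promoter sequences of 3 genes are shown because these genes differed most in level between shGFP and knockdown libraries. Sequences are those of RefSeq on GRCh38.p14, read 5′ to 3′ along the gene, and the searches covered the 250 bases before each annotated start. ESRP1 was left out of the search. Of the 9 genes, 6 had windows that were searched, 8 windows in all. For EHF and KLF4 a whole window is printed. Neither printed window holds a base of an exon in GENCODE release 29, although both lie inside the span of the gene. EHF has a second window, chr11:34632316-34632565, which is not printed and holds 102 bases of EHF exon. The ELF3 window lies within exons of ELF3 and its antisense gene ELF3-AS1, so only the 30 bases around a pair of motifs are printed. Capitals mark the ETS core (GGAA or, on the other strand, TTCC) in EHF and KLF4, and the E-box or TATA box in ELF3.
EHF, chr11:34624007-34624256, plus strand: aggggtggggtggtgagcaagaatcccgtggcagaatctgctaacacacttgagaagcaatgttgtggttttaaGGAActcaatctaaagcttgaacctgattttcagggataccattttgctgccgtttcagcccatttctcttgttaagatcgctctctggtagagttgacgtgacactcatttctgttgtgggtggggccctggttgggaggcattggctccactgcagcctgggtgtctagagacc
KLF4, chr9:107489770-107490019, minus strand: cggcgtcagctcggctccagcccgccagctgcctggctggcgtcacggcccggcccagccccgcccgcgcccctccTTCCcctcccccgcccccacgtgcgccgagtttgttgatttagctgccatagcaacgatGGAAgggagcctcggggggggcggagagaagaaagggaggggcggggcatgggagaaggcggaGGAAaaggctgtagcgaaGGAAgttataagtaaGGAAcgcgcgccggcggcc
ELF3 E-box, chr1:202010455-202010484, plus strand: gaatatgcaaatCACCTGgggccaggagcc
ELF3 TATA box, chr1:202010541-202010570, plus strand: caggggacacacTATAAAgccctgagctca

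These windows differ widely in base composition. The printed EHF window has 50% G and C and 4 CpG dinucleotides, and 29.3% of the 35116 RefSeq promoters hold fewer. ELF3, which lay on the other side of shGFP from EHF, also has 4 CpG dinucleotides. The KLF4 window has 69.2% G and C and 25 CpG dinucleotides (78.4% of promoters hold fewer). The GRHL1 window, which directly precedes the gene, has 81.6% and 45 (99.4% hold fewer), against a median of 11 over all promoters. The ETS core occurs once in the printed EHF window, 176 bases before the start, and 5 times in the KLF4 window, but 92.7% of all promoters hold at least 1. The core CACCC, on either strand, occurs 4 times in the printed EHF window, and 54.7% of promoters hold at least 1. The second EHF window holds neither the ETS core nor CACCC, and has 47.6% G and C and 2 CpG dinucleotides. The E-box CACCTG or its reverse complement CAGGTG was found in 1 of the 8 windows, that of ELF3, where it begins 120 bases before the start, and 17.5% of promoters hold it. The ELF3 window also holds TATAAA 34 bases before the start, as 10.7% of promoters do on either strand at any position. A KLF5 window, chr13:73054726-73054975, holds TATAAA as well, 194 bases before its start. None of the 8 windows searched holds the grainyhead core AACCNGTT, which 1.49% of promoters hold. Matches on both strands were counted, each one separately where motifs overlapped. They describe letters in these windows and no binding was measured.

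The ETS genes moved furthest, and in opposite directions. EHF (ENSG00000135373.12; chr11:34621093-34661057, plus strand) stood at 27.1, 27.3 and 30.1 CPM in the shGFP libraries. In shCHAF1B-1 it was at 6.83, 6.22 and 8.28 CPM, and in shCHAF1B-2 at 6.69, 6.52 and 7.65 CPM. Every knockdown library lay below every shGFP library, at about the same level for both hairpins. With shCHAF1B-1 the log2 fold change against shGFP came to -1.99 (SE 0.102), or 25.1% of the control level. With shCHAF1B-2 it came to -2.02 (SE 0.104), or 24.7%. In these bulk libraries fewer cells with EHF RNA and less EHF RNA per cell cannot be told apart.

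ELF3 (ENSG00000163435.15; chr1:202007945-202017188, plus strand) was scarce in the controls, with 20, 19 and 26 counts, or 0.771, 0.681 and 0.912 CPM. It reached 2.48, 2.24 and 2.60 CPM in shCHAF1B-1 and 1.75, 1.96 and 1.64 CPM in shCHAF1B-2. All knockdown libraries were above all control libraries, and the shCHAF1B-2 libraries lay below those of shCHAF1B-1. With shCHAF1B-1 the log2 fold change came to 1.62 (SE 0.187). With shCHAF1B-2 it came to 1.17 (SE 0.193), and few counts stand behind either value. The kit does not mark the strand, and 9.234% of the ELF3 exon bases are shared with ELF3-AS1 on the opposite strand. ELF3-AS1 averaged 1.1 CPM in shGFP, above ELF3 itself at 0.788 CPM. Over both hairpins, ELF3-AS1 had a log2 fold change of -0.14 (edgeR quasi-likelihood test, adjusted p = 0.566). The value was -0.35 for shCHAF1B-1 and 0.06 for shCHAF1B-2. How far antisense reads enter the ELF3 counts was not tested.

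GRHL1 (ENSG00000134317.17; chr2:9951693-10002277, plus strand) was also higher after knockdown. It stood at 4.97, 3.91 and 4.81 CPM in shGFP, at 7.81, 8.14 and 8.16 CPM in shCHAF1B-1 and at 7.73, 6.91 and 7.48 CPM in shCHAF1B-2. The groups with a CHAF1B hairpin did not overlap with shGFP. The log2 fold change was 0.82 (SE 0.106) and 0.69 (SE 0.107) for the hairpins in that order. OVOL1 was close to undetected, with 1, 1 and 4 counts in shGFP, 3, 2 and 5 in shCHAF1B-1 and 1, 6 and 3 in shCHAF1B-2. Its groups overlapped, and no fold change is given at this depth. Of the OVOL1 exon bases, 27.124% are shared with the antisense gene AP001266.1 on the opposite strand. The effect of this overlap on the OVOL1 counts was not tested.

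TP63 changed little. Its shGFP libraries had 78.0, 79.4 and 81.6 CPM, those of shCHAF1B-1 71.5, 72.7 and 71.3 CPM, and those of shCHAF1B-2 80.9, 76.1 and 75.8 CPM. The shCHAF1B-1 libraries were below all others, while the shCHAF1B-2 libraries overlapped with shGFP. Its log2 fold change came to -0.15 (SE 0.0448) with shCHAF1B-1. With shCHAF1B-2 it came to -0.04 (SE 0.0449), and to -0.08 without replicate 1 of shCHAF1B-2, whose TP63 level was the highest of its group.

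The Krüppel-like pair went in opposite directions. KLF4 (ENSG00000136826.14; chr9:107484852-107490482, minus strand) stood at 8.05, 9.24 and 7.12 CPM in shGFP. It was at 16.1, 13.7 and 13.8 CPM in shCHAF1B-1 and at 13.1, 12.8 and 15 CPM in shCHAF1B-2. No knockdown library came as low as the highest control. The log2 fold change was 0.83 (SE 0.109) and 0.74 (SE 0.11). KLF5, the most abundant of these RNAs, was at 156, 155 and 162 CPM in shGFP. Its shCHAF1B-1 libraries had 131, 133 and 133 CPM, and its shCHAF1B-2 libraries 145, 145 and 137 CPM. These were below every control, but the log2 fold change was small, at -0.25 (SE 0.0429) and -0.15 (SE 0.0429).

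The splicing regulators stayed near their control levels. ESRP1 was at 104, 103 and 108 CPM in shGFP, 112, 110 and 112 CPM in shCHAF1B-1 and 116, 115 and 120 CPM in shCHAF1B-2. All knockdown libraries were above the controls, with a log2 fold change of 0.08 (SE 0.0417) and 0.15 (SE 0.0417). ESRP2 was at 115, 117 and 113 CPM in shGFP, 114, 108 and 106 CPM in shCHAF1B-1 and 106, 107 and 99.7 CPM in shCHAF1B-2. Its knockdown libraries ran lower and overlapped with the controls at replicate 1 of shCHAF1B-1. The log2 fold change was -0.07 (SE 0.0468) and -0.14 (SE 0.047). Of the ESRP2 exon bases, 2.678% are shared with NFATC3 on the opposite strand.

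**Figure D1:**
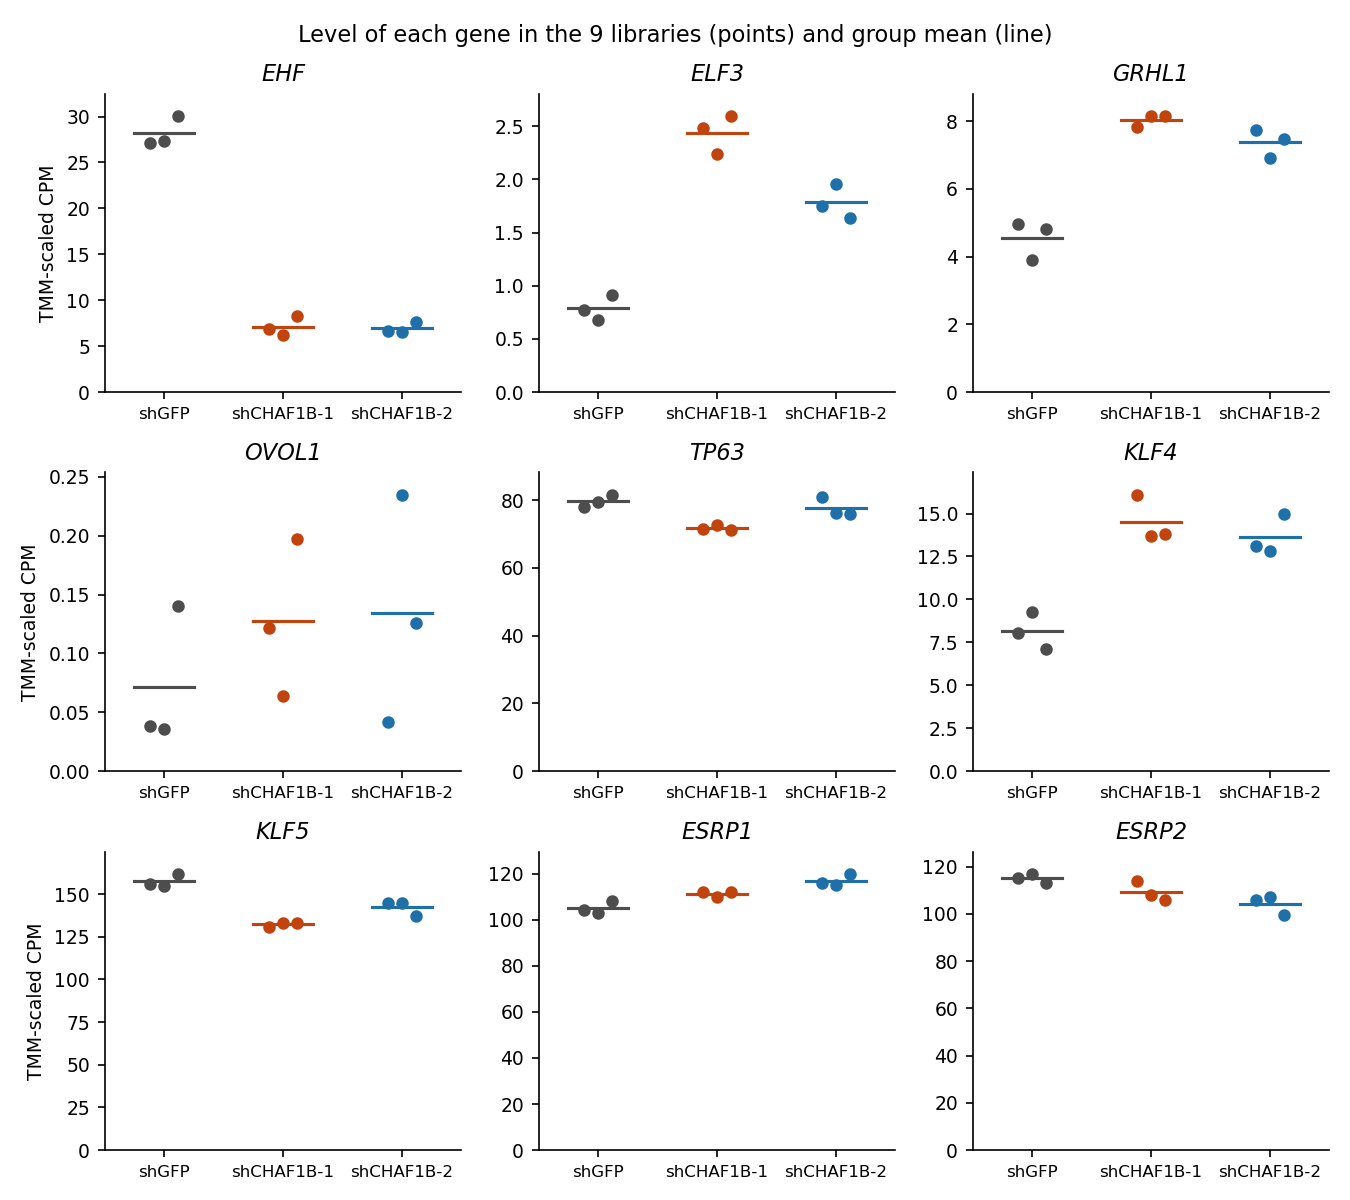
TMM-scaled CPM (y axis, from 0) of the 9 genes in each library, by group (x axis), with points for the 3 libraries and a line at the group mean. EHF drops from 27.1 CPM or more in shGFP to 8.28 CPM or less, ELF3, GRHL1 and KLF4 lie above shGFP in every knockdown library, and TP63, KLF5, ESRP1 and ESRP2 stay close to their control level.

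Read together, 6 of the 8 genes tested passed an adjusted p under 0.05 in shCHAF1B-1 against shGFP (3 higher, 3 lower), where 53.2% of all tested genes passed. In shCHAF1B-2 against shGFP 7 of 8 passed, where 51.3% of all genes did. For the mean of both hairpins minus shGFP 7 of 8 passed, 4 higher and 3 lower, against 56.9% of all genes (29.2% higher and 27.7% lower). The genes were selected on this contrast, and the 2 hairpins share the same shGFP libraries, so nothing is read from these counts. In 6 of 8 genes all 6 knockdown libraries lay on one side of all 3 shGFP libraries, as they did in 48.6% of all tested genes. The median log2 fold change of the 8 genes over both hairpins was 0.01, beside -0.01 for all genes tested.

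The difference between the hairpins was not used in the selection and was tested for each gene. In shCHAF1B-2 minus shCHAF1B-1 no gene passed (0 of 8), and 0.0% of all 16235 genes did, with the edgeR quasi-likelihood test and also with DESeq2. At an unadjusted p under 0.05 stood 1800 of the 16235 genes, among them 3 of the 8: ELF3, KLF5 and TP63. For ELF3 the log2 difference was -0.45, with a 95% interval from -0.80 to -0.09 (edgeR adjusted p = 0.425) and with all 3 shCHAF1B-2 libraries below all 3 of shCHAF1B-1. TP63 had a difference of 0.11 (0.01 to 0.21, edgeR adjusted p = 0.438) and KLF5 one of 0.10 (0.01 to 0.20, adjusted p = 0.439), with shCHAF1B-2 higher in all 3 libraries of each. The hairpins' libraries were also separate for GRHL1 (shCHAF1B-2 lower) and ESRP1 (shCHAF1B-2 higher). The interval for EHF was -0.27 to 0.22, for KLF4 -0.32 to 0.14 and for GRHL1 -0.34 to 0.09. ESRP1 had an interval of -0.02 to 0.16 and ESRP2 one of -0.17 to 0.03. CHAF1B had an interval of -0.41 to 0.32.

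**Figure D2:**
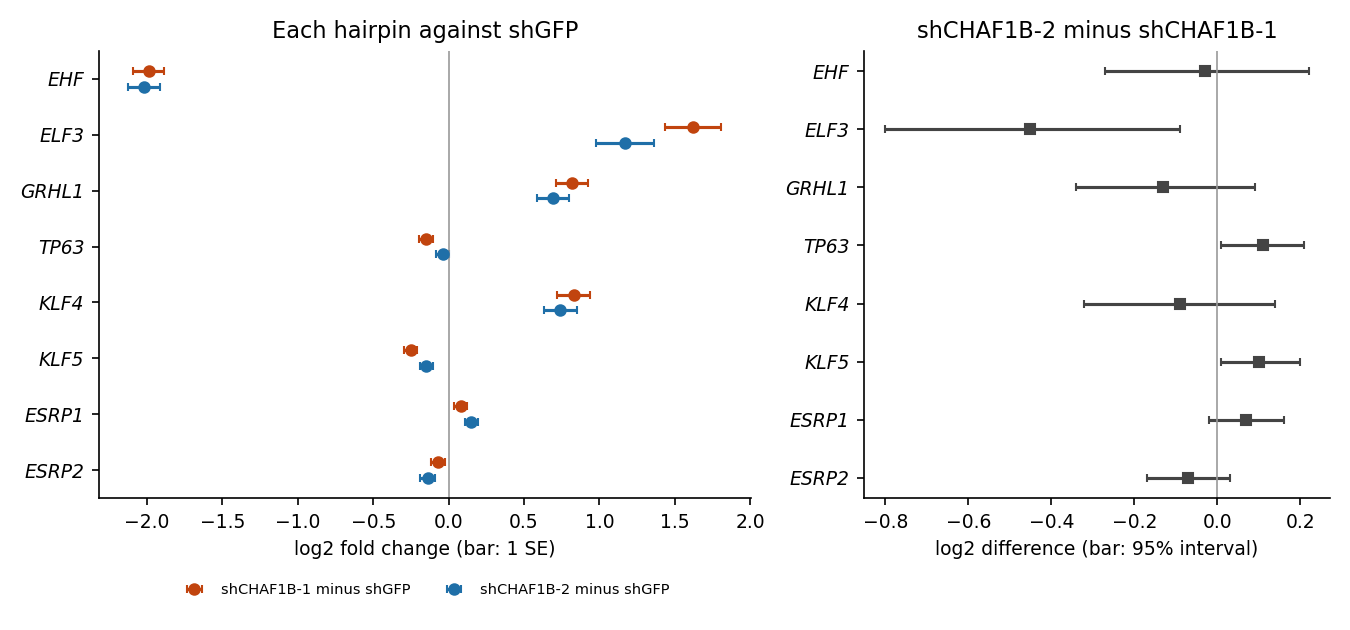
Left, log2 fold change (x axis) of each gene for each hairpin against shGFP, with bars of 1 SE. Right, the log2 difference between the hairpins with its 95% interval, where ELF3 (-0.80 to -0.09), TP63 (0.01 to 0.21) and KLF5 (0.01 to 0.20) lie off 0 before adjustment.

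Levels of different genes were compared per kilobase of exon. In shGFP, KLF5 was highest at 40.5 ± 0.981 CPM per kilobase (SD, n = 3), followed by ESRP1 at 21.6 ± 0.484 and ESRP2 at 20.6 ± 0.367. The ESRP genes are neighbours whose order depends on the length used: with the longest transcript in place of all exons, ESRP2 (30.2) lay above ESRP1 (27.6). TP63 followed at 10.7 ± 0.242 and EHF at 6.42 ± 0.38 CPM per kilobase, all above the median tested gene at 3.63. KLF4 (2.22 ± 0.291), GRHL1 (0.574 ± 0.0721), ELF3 (0.11 ± 0.0162) and OVOL1 (0.0186 ± 0.0155) lay below it. One pair of neighbours changed places in the knockdowns. KLF4 reached 3.97 ± 0.372 and 3.73 ± 0.337 CPM per kilobase in shCHAF1B-1 and shCHAF1B-2, while EHF stood at 1.62 ± 0.241 and 1.59 ± 0.139. Among all tested genes EHF went from the percentile 62.0 to 35.8, KLF4 from 41.3 to 50.9 and ELF3 from 4.36 to 11.2.

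**Figure D3:**
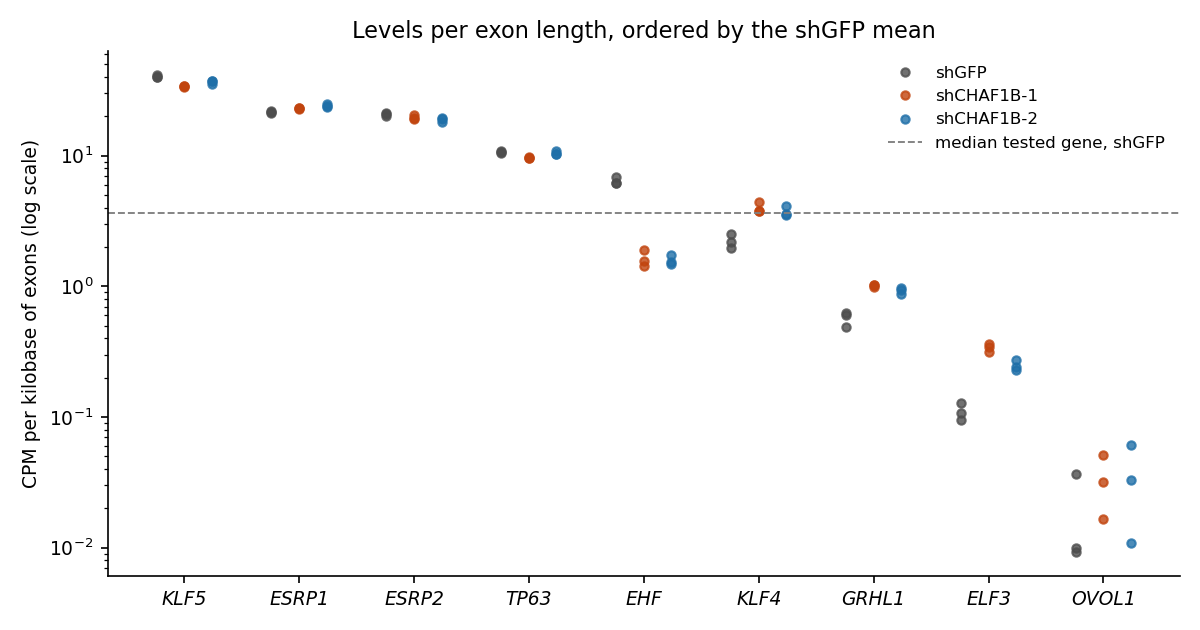
CPM per kilobase of exons on a log axis, for each library, with genes ordered by their shGFP mean and the median tested gene (3.63) as a dashed line. KLF5 is highest in all groups, EHF lies above KLF4 in shGFP, and KLF4 lies above EHF in both knockdown groups.

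Ratios within a library do not depend on how libraries are scaled. The ratio of EHF to ELF3, per kilobase, was 57.7, 65.8 and 54.1 in shGFP and between 4.52 and 7.65 in the 6 knockdown libraries. EHF thus remained the more abundant of these ETS RNAs in every library, by a smaller factor. The ratio of KLF4 to KLF5 was 0.055, 0.0635 and 0.0468 in shGFP and 0.0937 to 0.131 after knockdown. KLF5 stood above KLF6, a broadly expressed relative, in shGFP (ratios of 1.28, 1.27 and 1.32), and below it in the knockdowns (0.535 to 0.637). This order in shGFP holds per kilobase of all exons: in CPM, not set per length, KLF6 (193) was above KLF5 (157) there too. KLF4 to KLF6 gave 0.0702, 0.0805 and 0.062 in shGFP and 0.0597 to 0.0722 after knockdown, so these ranges overlapped. GRHL1 to GRHL3 was 0.0885, 0.0705 and 0.092, then 0.149 to 0.173. ESRP1 to ESRP2 was 1.03, 1.01 and 1.09 in shGFP and 1.12 to 1.37 after knockdown, without overlap. Other pairs overlapped: TP63 to TP73 was 64.8 to 83.5 in shGFP and 29 to 88.2 after knockdown, and OVOL2 to OVOL1, which rests on very few OVOL1 counts, 74.8 to 359 and 40.7 to 232.

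**Figure D4:**
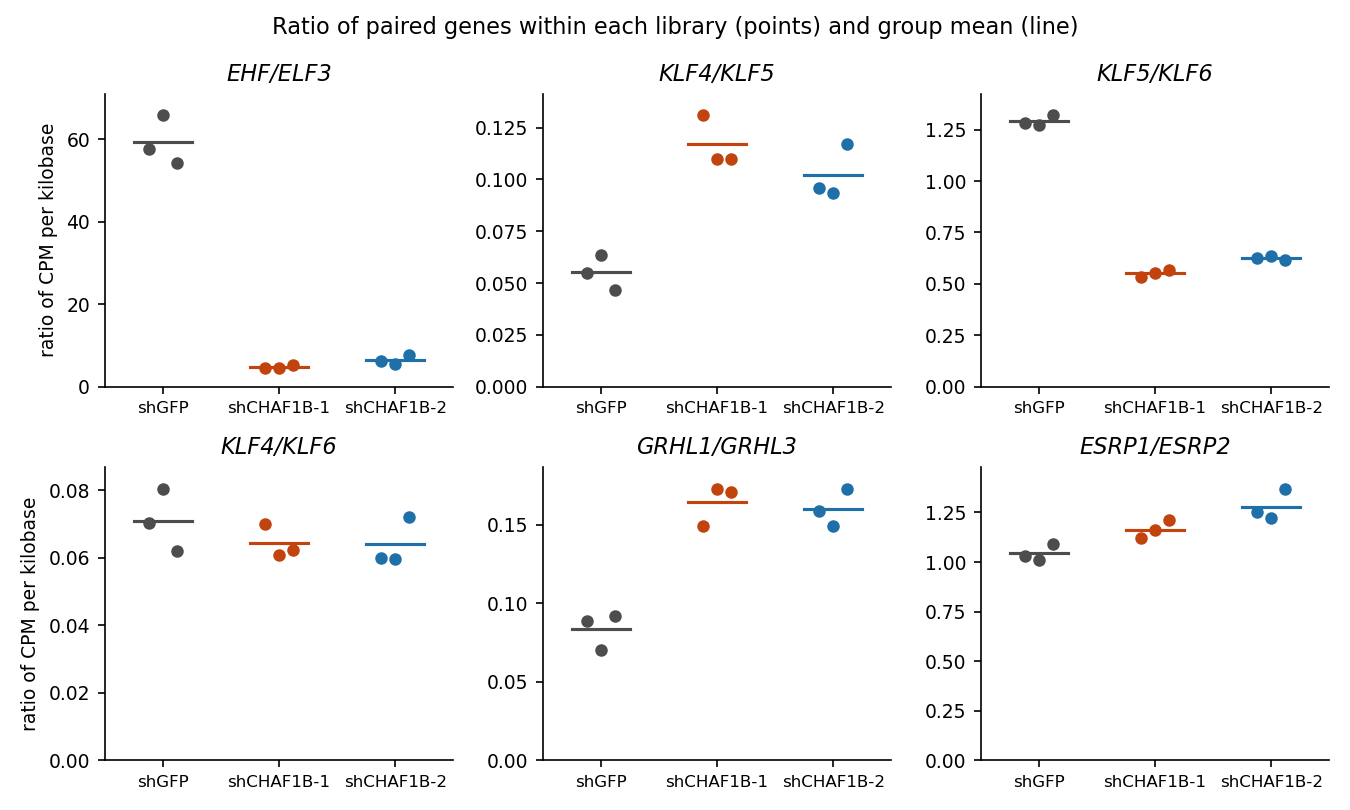
Ratio of CPM per kilobase for 6 pairs of genes (y axis, from 0) in each library, by group, with a line at the group mean. EHF/ELF3 is 54.1 or more in shGFP and 7.65 or less in the knockdowns, KLF4/KLF6 overlaps between groups, and the other 4 ratios shown also separate shGFP from the knockdowns.

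The lists that follow were chosen with earlier results known, and their counts are set beside the shares of all tested genes over both hairpins. Relatives of these genes from the same families changed in both directions. Of 21 tested relatives (25 listed), 10 rose, 6 fell and 5 did not pass (all genes: 29.2% higher, 27.7% lower), with a median log2 fold change of 0.10 over both hairpins beside -0.01 for all genes. KLF6 rose from 193 ± 0.155 CPM in shGFP to 378 ± 7.84 in shCHAF1B-1 and 358 ± 7.84 in shCHAF1B-2 (mean log2 fold change 0.93, edgeR adjusted p = 1.4e-10). KLF7, another broadly expressed family member, rose by 1.05 (adjusted p = 1.2e-08). TFCP2L1, of the grainyhead and CP2 family, had a log2 fold change of -0.69 (adjusted p = 1.0e-08). Of 13 tested epithelial transcription regulators from other families (16 listed), 6 rose and 2 fell (all genes: 29.2% and 27.7%), with a median of 0.10. TBX3, a T-box factor of mammary development, rose by 0.98 (adjusted p = 3.9e-08) and PRDM1, a repressor also active in epidermal differentiation, by 0.60 (adjusted p = 1.1e-04). BARX2, a homeobox gene, rose from 1, 3 and 0 counts in shGFP to 9 to 15 counts per knockdown library (adjusted p = 2.9e-04), too few for a fold change. The Notch target HES1 fell (log2 fold change -0.16, adjusted p = 0.0392). The HES1 call ended in 9 of 15 alternatives: DESeq2, no filter, the replicate block, or without replicate 2 or 3 of shCHAF1B-1, 1 or 2 of shCHAF1B-2, or 1 or 2 of shGFP.

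Of 9 tested factors that oppose epithelial identity (12 listed), SNAI2, ZEB1, SNAI1 and ZEB2 rose, TCF4 fell and 4 did not pass, where 56.9% of all genes passed (29.2% higher, 27.7% lower). The median was 0.13. SNAI2 went from 52.7, 55.2 and 56.6 CPM in shGFP to between 92.6 and 104 CPM in the knockdowns (log2 fold change 0.84, edgeR adjusted p = 2.1e-09). ZEB1 went from 4.86, 4.16 and 4.60 CPM to between 10.7 and 14.1 CPM (1.44, adjusted p = 2.6e-08). SNAI1 was at 0.308, 0.502 and 0.631 CPM in shGFP and between 1.35 and 1.62 CPM after knockdown (1.60, adjusted p = 2.4e-05). ZEB2 rose by 0.74 (adjusted p = 0.00112), from 2.58 ± 0.349 CPM in shGFP, and TCF4, an E-protein, had a log2 fold change of -0.50 (adjusted p = 7.4e-04). These 5 were the genes of the list whose 6 knockdown libraries lay on one side of the shGFP libraries, as 48.6% of all tested genes did, and TWIST1, TWIST2, TCF3 and FOXC2 overlapped. The fibroblast markers, divided as given above with FAP and COL1A1 higher and DCN lower, summed to 55.0 to 58.7 CPM in the 6 knockdown libraries against 43.6 to 46.9 CPM in shGFP. Their part in these values was not tested.

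Of 14 tested splicing regulators known from epithelial and mesenchymal programmes (16 listed), 3 rose, 8 fell and 3 did not pass (all genes: 29.2% higher, 27.7% lower), with a median of -0.16. MBNL3, a muscleblind-like protein, had a log2 fold change of -0.66 (edgeR adjusted p = 9.9e-07), from 33.2 ± 1.23 CPM in shGFP to 20.8 ± 1.5 and 21.3 ± 1.97. SRSF1, an SR protein, was at -0.35 (adjusted p = 7.9e-06) and PTBP2, a polypyrimidine tract-binding protein, at -0.45 (adjusted p = 1.3e-04). QKI, which promotes mesenchymal splice forms, rose by 0.37 (adjusted p = 5.5e-06), from 124 ± 4.58 CPM to 154 ± 6.95 and 165 ± 3.86. RBM38 rose by 0.43 (adjusted p = 6.4e-04) and CELF1 by 0.20 (adjusted p = 0.00274).

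Genes known to be spliced under ESRP control were counted per gene, so their splice forms were not seen. Of 10 tested, 7 rose, 1 fell and 2 did not pass (all genes: 29.2% higher, 27.7% lower), with a median of 0.28. CD44, the hyaluronan receptor, rose from 457 ± 9.64 CPM in shGFP to 817 ± 0.991 and 812 ± 7.02 (log2 fold change 0.83, edgeR adjusted p = 3.8e-10). RALGPS2, an exchange factor for Ral, rose by 0.93 (adjusted p = 1.4e-09), EXOC7, of the exocyst, by 0.44 (adjusted p = 8.5e-06) and CTNND1, which encodes p120 catenin, by 0.27 (adjusted p = 1.4e-05). SCRIB, a polarity protein, had a log2 fold change of -0.27 (adjusted p = 0.0253), with shGFP libraries at 221, 237 and 166 CPM. Its call ended with DESeq2 and without replicate 2 of shCHAF1B-1, 1 of shGFP or 2 of shGFP, and its groups overlapped.

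Among genes known to be activated by p63, 12 of 24 tested (26 listed) rose, 7 fell and 5 did not pass (all genes: 29.2% higher, 27.7% lower), with a median of 0.18. LAMA3, a laminin chain of the basal cell's anchor to its matrix, went from 688 ± 9.43 CPM in shGFP to 2075.3 ± 24 and 2025.2 ± 85.6 (log2 fold change 1.58, edgeR adjusted p = 3.6e-12). The laminin chain LAMB3 rose by 1.42 (adjusted p = 4.0e-11) and the integrin subunit ITGA3 by 1.19 (adjusted p = 3.4e-10). Among those that fell were the basal keratins KRT5, from 7264 ± 323 CPM to 4082.1 ± 201 and 4039.5 ± 100 (-0.84, adjusted p = 2.5e-09), and KRT14 (-0.52, adjusted p = 4.4e-06). TRIM29 (-0.61, adjusted p = 4.5e-08) and the desmoglein DSG3 (-0.41, adjusted p = 6.7e-07) fell as well. These 4 were chosen after their values were seen. TP63 itself was at 79.7 CPM in shGFP, with the small differences given above.

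Genes that depend on grainyhead-like factors were divided. Of 10 tested (12 listed), CLDN4, ERBB3, SPINT1 and CDH1 rose, EPCAM, OVOL2 and TGM1 fell and 3 did not pass (all genes: 29.2% higher, 27.7% lower), with a median of 0.05. CLDN4, a tight junction protein, went from 2.5, 2.83 and 2.32 CPM in shGFP to between 6.85 and 9.62 CPM (log2 fold change 1.66, edgeR adjusted p = 1.7e-08). The receptor ERBB3 rose by 0.84 (adjusted p = 6.7e-09) and the protease inhibitor SPINT1 by 0.66 (adjusted p = 4.2e-07). E-cadherin (CDH1) rose by 0.18 (adjusted p = 5.5e-04), with knockdown libraries at 251 to 263 CPM against 223 to 227 CPM in shGFP. The adhesion molecule EPCAM had a log2 fold change of -0.29 (adjusted p = 1.5e-04), OVOL2, the relative of OVOL1, one of -0.29 (adjusted p = 0.0314) and the transglutaminase TGM1 one of -0.14 (adjusted p = 0.0374). The OVOL2 call ended with DESeq2, with no filter and without replicate 2 of shCHAF1B-1, 1 or 2 of shCHAF1B-2 or 1 or 2 of shGFP. That of TGM1 ended with DESeq2, no filter, the replicate block and without any shCHAF1B-1 library, replicate 2 of shCHAF1B-2 or replicate 1 or 2 of shGFP.

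Of 6 tested genes linked to ELF3, EHF, KLF4 or KLF5 (10 listed), 5 rose and none fell (all genes: 29.2% higher, 27.7% lower), with a median of 0.56. FGFBP1, a carrier of fibroblast growth factors, went from 189 ± 5.99 CPM in shGFP to 361 ± 9.63 and 385 ± 34.4 (log2 fold change 0.98, edgeR adjusted p = 3.7e-09). The growth factor PDGFA rose by 0.85 (adjusted p = 1.3e-07), the cell cycle inhibitor CDKN1A, a known KLF4 target, by 0.64 (adjusted p = 1.9e-07) and cyclin D1 (CCND1) by 0.49 (adjusted p = 1.0e-06). IVL, the cornified envelope protein involucrin, stood at 2.12 ± 0.415 CPM in shGFP and rose by 0.43 (adjusted p = 0.0316). The IVL call ended with DESeq2, with no filter and without replicate 2 of shCHAF1B-1, 2 or 3 of shCHAF1B-2 or 1 or 2 of shGFP. LCN2, lipocalin 2, did not pass (0.11, adjusted p = 0.766) at 0.40 ± 0.153 CPM in shGFP.

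**Figure D5:**
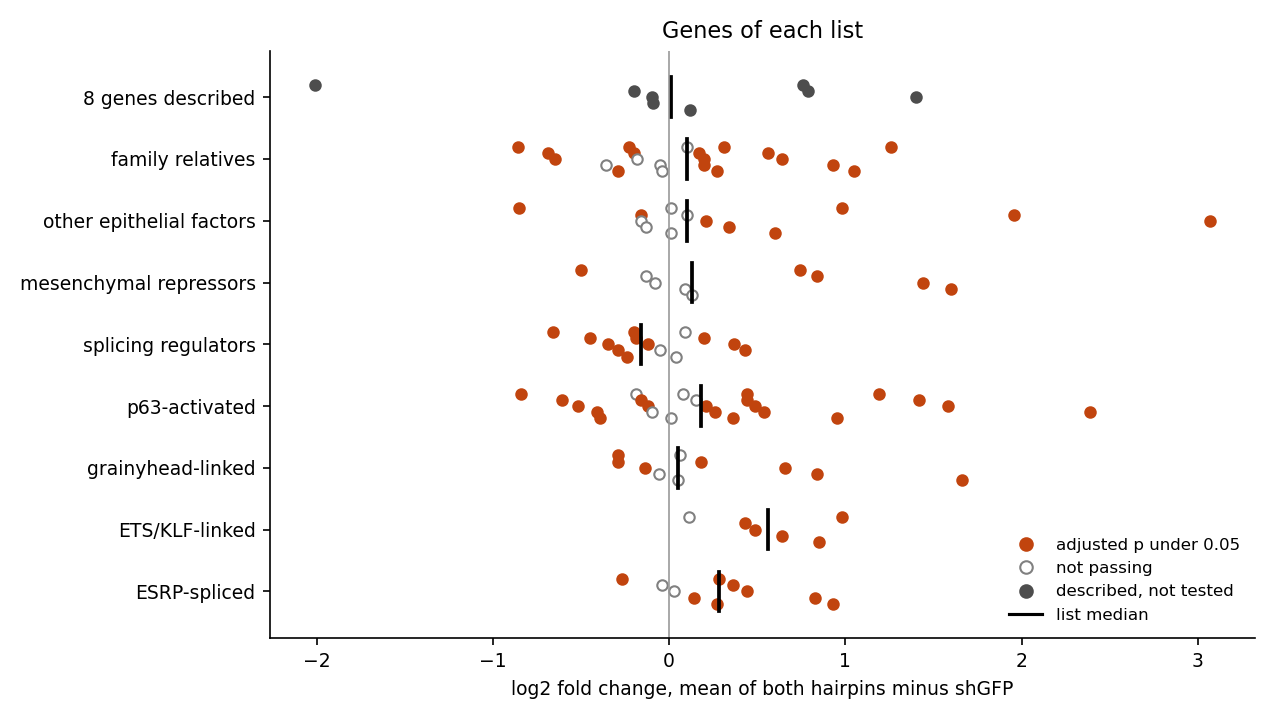
Log2 fold change over both hairpins against shGFP (x axis) of each tested gene, by list, with filled orange points for adjusted p under 0.05, open points for genes that did not pass, dark points for the 8 genes described without a test, and a line at each list median. The 8 genes run from -2.01 (EHF) to 1.4 (ELF3) around a median of 0.01, and the splicing regulators have the lowest median at -0.16.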

How the data were processed

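Polyadenylated RNA of MCF10A cells was sequenced with the TruSeq RNA kit, version 2, per the labels' protocols. The authors deposited raw counts per gene. Tools in the submitters' processing notes are DESeq2 1.18.1, STAR 2.5.3a and HTSeq 0.8.0, beside the builds mm10 and hg38, with their roles not given. Symbols and exon lengths came from GENCODE release 29. Genes were filtered with filterByExpr (minimum count 10, total 15, proportion 0.7), then normalised by TMM. R 4.3.3 with edgeR 4.0.16 fitted all 9 libraries at once by group, and its quasi-likelihood test gave p-values adjusted over 16235 genes (Benjamini-Hochberg, threshold 0.05). The steps were tested on simulated data. The 10 genes and all lists were chosen with earlier results of these data known. Named in the text are all of the 10, and in each list up to 4 genes with the smallest adjusted p over both hairpins plus those needed for counts of 5 or fewer; ELF3-AS1, NFATC3, further markers and the family partners in ratios were named after their values were seen. Alternatives were RLE and upper-quartile scaling, DESeq2 1.42.0, other filters, only the groups compared, a replicate block and leaving out each library. Counts of every pair of libraries within a group differed by more than sampling noise. Some genes that this rule names are not reported here.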

Additional observations from a re-analysis of the deposited data

How the results depend on the processing

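The log2 fold changes of the 8 genes against shGFP, given as a description, kept their sign in all alternatives run, for either hairpin (16 alternatives) and for both together (15). EHF ranged from -2.11 to -1.90 for shCHAF1B-1. The number of the 8 genes past the threshold, on the contrast they were selected on, was 6 in every alternative for shCHAF1B-1, 6 to 7 for shCHAF1B-2 and 5 to 8 for both together, and nothing is read from it. Leaving out a library gave 7668 to 9042 passing genes for shCHAF1B-1, 7281 to 8444 for shCHAF1B-2 and 8255 to 9477 for both together. It gave 0 passing genes between the hairpins. With the replicate number as a block, 8305, 7981 and 8913 genes passed in that order, and 0 between the hairpins. The numbers do not pair the libraries: same-numbered libraries had correlations of -0.138 to 0.1, and 1 of 9 libraries correlated best with its own number. Upper-quartile scaling moved ESRP1 to 0.12 for shCHAF1B-2 and 0.09 for both. Fitting only the groups compared gave no value for both hairpins together. Depth limits ELF3, with 65 counts over the 3 shGFP libraries, and OVOL1, with 6.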

Other observations

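The genes around EHF were looked up after the EHF values had been seen. Within 500 kb of its start, 4 other genes were tested over both hairpins against shGFP. Of these 3 rose and 1 fell, where 56.9% of all tested genes passed (29.2% higher, 27.7% lower). ABTB2, which starts at -263.1 kb from the EHF start, rose by 1.41 on the log2 scale (edgeR quasi-likelihood test, adjusted p = 8.4e-08), from 5.70 ± 0.661 CPM in shGFP (SD, n = 3) to between 13.2 and 18.0 CPM in the knockdown libraries. CAT, the catalase gene on the same side, rose by 0.13 (adjusted p = 0.0168). On the other side PDHX rose by 0.16 (adjusted p = 0.00733), and APIP had a log2 fold change of -0.49 (adjusted p = 1.4e-05). None of the 4 genes moved as far down as EHF did. EHF was selected on earlier results of these same libraries, so nothing is read from that comparison.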
